A study of Mus musculus with 8 samples.

Results

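The genes described here are the mouse zinc finger genes whose official symbol is Zfp followed by digits only and that were expressed in untreated Hepa-1 cells. Entrez gene identifiers of the count table were matched to symbols through the RefSeq annotation of GRCm38.p6 (mm10), and a gene was kept when its mean in the 2 control RNA-seq libraries was at least 5 CPM, the counts scaled to the library total. This gave 227 genes out of 354 Zfp genes in the count table and 23403 genes of the table in all. The genes were thus selected on their control level only, so the control level of these genes is a description, and every comparison with treated cells shares those controls. Hepa-1 (Hepa-1c1c7) is a mouse hepatoma line. The RNA-seq libraries were 2 from cells exposed to 25 µM hexavalent chromium (chromate, CrK2O4) in the growth medium for 90 minutes, called Cr25 replicates 1 and 2, and 2 from control cells without chromium, for which the labels name no regimen. Nothing in the labels says that the replicates came from separate cultures, so the p-values measure only the spread between these libraries, which may be technical. FAIRE-seq, which sequences the DNA that is not bound to protein after formaldehyde crosslinking, had 1 library per condition: 25 µM for 90 minutes, 0.5 µM for 20 passages, and a control of each.

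Most Zfp genes encode Cys2His2 (C2H2) zinc finger proteins, in which each finger folds around a zinc ion and contacts a few bases of DNA, so that a string of fingers reads a longer site. Many carry a KRAB domain, which recruits the co-repressor TRIM28 (KAP1) and, through it, the histone methyltransferase SETDB1 and HP1 proteins, and these KRAB zinc finger proteins are known for silencing transposable elements and for keeping imprints. Many of their genes arose by tandem duplication and lie in clusters of related neighbours, some of them near-identical. The symbol Zfp also covers proteins with other kinds of zinc finger and other work, including mRNA decay and ribosome quality control.

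Of the 227 genes, 221 held at least 1 C2H2 pattern in their RefSeq coding sequence, with a median of 10 and a maximum of 36 in Zfp142. A KRAB A-box pattern was found in 113 and not in 114. The 6 genes without a C2H2 pattern were Zfp36, whose protein has CCCH fingers instead, Zfp185, Zfp330, Zfp503, Zfp703 and Zfp839. Control levels ran from 5.02 CPM in Zfp109 to 484 CPM in Zfp706, with a median of 18.2 CPM. Next to the threshold, Zfp109, Zfp772 and Zfp563 lay just above it at 5.02, 5.16 and 5.30 CPM, and Zfp991, Zfp30 and Zfp599 just below it at 4.98, 4.91 and 4.88 CPM. Within the list of Zfp genes with a well described function, Zfp42 (0.0415 CPM), Zfp423 (0.0981 CPM) and Zfp521 (0 CPM) were not expressed at this level and are not described further.

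The library totals ranged from 32319676 to 37696116 counts, and the lowest count of any of the 227 genes in any library was 37 (Zfp41). All 227 passed the filter on low counts and were among the 13619 genes tested. The 2 treated libraries differed from each other more than the 2 controls did: the Pearson correlation of log2 CPM across genes was 0.974 between treated and 0.997 between control libraries, and the TMM normalization factors were 1.03 and 0.897 for Cr25 replicates 1 and 2 against 1.04 and 1.04 for the controls. Every result is therefore given for each treated library as well. Of 10 liver and hepatoma markers, 9 were tested, with Alb at 904 and 947 CPM in the controls and 3670 and 3550 CPM in the treated libraries, while Apoa1 was too low to test and Ttr and Hnf4a stayed under 2 CPM in all 4 libraries. Alb and Ttr were called higher by edgeR (log2 fold changes of 1.96 and 2.46, adjusted p = 0.0317 and 0.0332). Of 10 markers of blood, endothelial, muscle and nerve cells, 6 were tested and Cd3e and Cdh5 had no counts. The endothelial marker Pecam1 was called higher by edgeR (0.489 and 0.486 CPM in the controls, 1.77 and 2.24 CPM after chromate, adjusted p = 0.0438). On library totals, the summed level of the 10 markers was 12.6 and 12.9 CPM in the controls. It was 10.7 CPM in Cr25 replicate 1 and 27.0 CPM in Cr25 replicate 2, where Cd68 made up most of the sum. The part of other cells in the results was not tested.

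Reads could not always be assigned to 1 gene. Zfp966 and Zfp967, neighbours on chromosome 2, had the same count in every library (4468 and 5063 in the controls, 7420 and 3604 in the treated libraries), and none of the 50-base stretches of their exons occurs only once in the genome, so they stand for 1 measurement and not for 2. No other genes of the series shared all their counts, and 183 of the 227 had at least 90% unique stretches. In 14 genes fewer than 50% of stretches were unique, and 50 genes shared exonic bases with another gene. The counting tool and its use of strand are not given in the sources used here, so values of these genes are uncertain. In bulk libraries, moreover, less RNA per cell and fewer cells of a kind cannot be told apart.

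Few Zfp genes passed the edgeR test for a change with chromate, which does not show that the others did not change. A gene whose treated libraries lie far apart is less likely to pass. With a two-sided quasi-likelihood test in edgeR and Benjamini-Hochberg adjustment over 13619 genes (threshold 0.05), 4 of 227 rose and 0 fell, or 1.76% against 4.63% of all genes tested (1.78% rose and 2.85% fell). At an unadjusted p under 0.05, 32 were higher (14.1% against 15.6% of all genes) and 7 lower (3.08% against 15.1%). DESeq2, with its own size factors, called 12 higher and 4 lower (Zfp207, Zfp407, Zfp934 and Zfp975), where it called 6.69% of all genes higher and 7.07% lower. The 12 higher were the 4 genes called by edgeR and Zfp36, Zfp64, Zfp296, Zfp408, Zfp410, Zfp575, Zfp622 and Zfp740, or 5.29% of the Zfp genes, and the 4 lower were 1.76%.

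The 4 genes that rose did so to a like extent in both treated libraries, which a test on 2 against 2 libraries favours. Zfp451, which encodes a SUMO ligase, measured 34.6 and 32.6 CPM in the controls and 66.1 and 70.4 CPM in the treated libraries, a log2 fold change of 1.02 ± 0.11 (SE, 2 against 2 libraries, edgeR adjusted p = 0.0326). It lies on chromosome 1 (33761541 to 33815602), and its treated and control values did not overlap. Zfp52, a KRAB gene with 14 finger patterns in the large chromosome 17 cluster, measured 25.6 CPM in both controls and 44.3 and 46.3 CPM in the treated libraries (log2 fold change 0.82 ± 0.11, edgeR adjusted p = 0.0419). Zfp7, a KRAB gene on chromosome 15 with 16 finger patterns, measured 24.8 and 24.3 CPM in the controls and 41.5 and 42 CPM after chromate (0.76 ± 0.11, edgeR adjusted p = 0.0453). Zfp346, whose protein binds double-stranded RNA through its fingers, measured 37.4 and 36.9 CPM in the controls and 59.1 and 64.8 CPM after chromate (0.74 ± 0.12, edgeR adjusted p = 0.0486). In each of the 4 genes both treated libraries lay above both controls, as the rule for naming called genes required. This adds no support to the calls. Among all genes tested, 32.2% had both treated libraries above both controls. All 4 calls were close to the threshold: with either control library left out none was called, without normalization beyond library size Zfp451 alone was, and without the filter on low counts Zfp7 (edgeR adjusted p = 0.0532) and Zfp346 (0.0521) were lost and Zfp740 was gained.

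**Figure D1:**
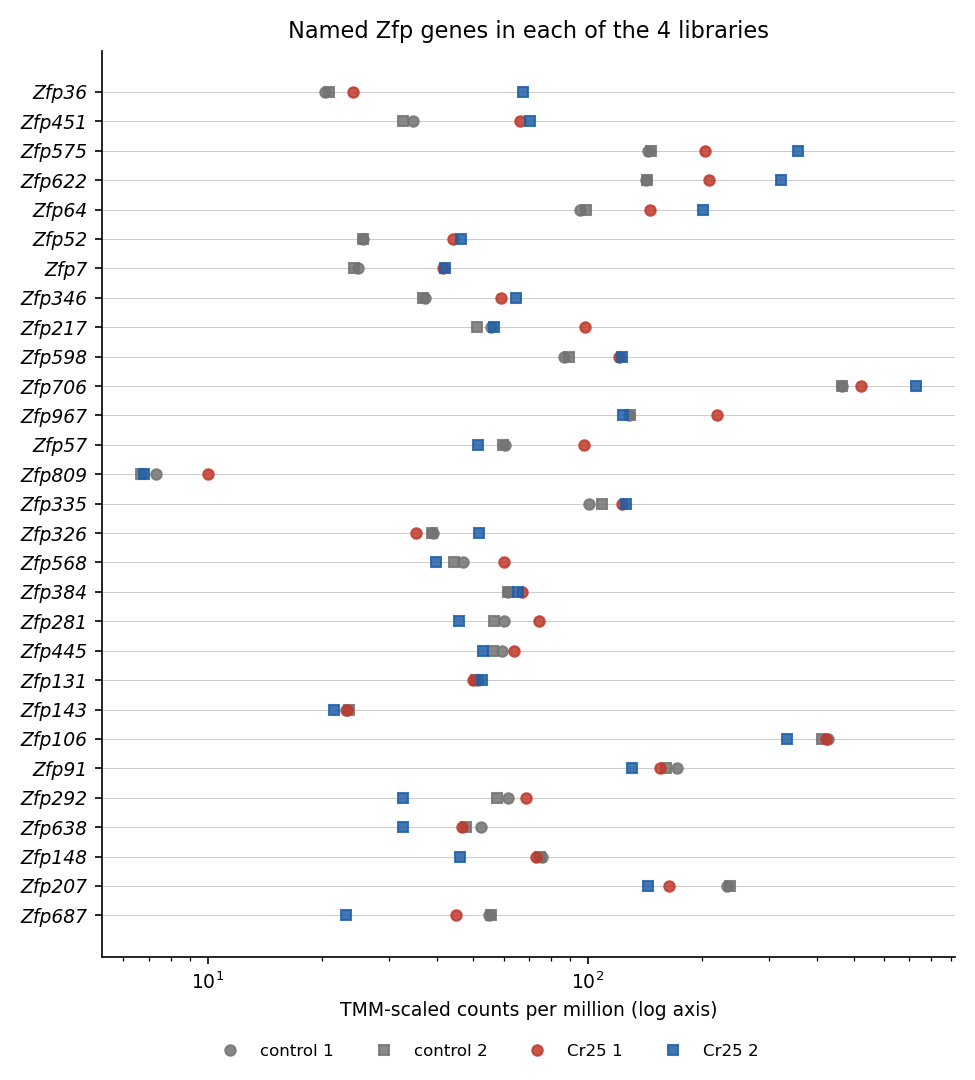
Level of 29 named Zfp genes in each library, as TMM-scaled CPM on a log axis, with genes ordered by log2 fold change. Circles and squares are replicates 1 and 2, grey for control and coloured for Cr25. The control pairs nearly coincide, and the treated pair coincides in Zfp7 (41.5 and 42 CPM) but lies far apart in Zfp36 (24.1 and 67.7 CPM).

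Taken as a group, the 227 genes were centred near no change, and the median of other genes of at least 5 CPM was a little lower. Their median log2 fold change was 0.05, with quartiles of -0.22 and 0.30, against -0.04 for 10031 other genes of at least 5 CPM and -0.00 for all genes tested. The share with a log2 fold change below 0 was 43.6% (99 of 227) against 54.1% of the other genes and 50.4% of all tested. Without normalization beyond library size the median of all genes was -0.11 and that of the Zfp genes -0.05, so the sign of their median follows the scaling. Its place against all genes also moved with the settings: with DESeq2 it was 0.04 against 0.05 for all genes, and without the filter on low counts 0.02 against 0.03. On the TMM scale the largest fitted values were 1.46 for Zfp296 and -1.26 for Zfp324, and neither passed the edgeR test (adjusted p = 0.202 and 0.251).

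This median covered a split between the treated libraries. Against the mean of the controls, the median Zfp gene was at a log2 difference of 0.21 in Cr25 replicate 1 and of -0.19 in Cr25 replicate 2, while the other genes were at -0.03 and -0.09. In Cr25 replicate 1, 162 genes (71.4%) lay above the control mean, and in Cr25 replicate 2, 144 (63.4%) lay below it. The difference between the 2 treated libraries had a median of 0.50 over the Zfp genes and 0.04 over the other genes, and the difference between the 2 controls was -0.009 and -0.005. The difference between the treated libraries exceeded 1, or 2-fold, in 23 Zfp genes (10.1%) and in 4.42% of the other genes. It was below -1 in Zfp948, Zfp36 and Zfp296, or 1.32% of the Zfp genes against 1.49% of the other genes.

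Counted against both controls, 78 Zfp genes (34.4%) had Cr25 replicate 1 above and Cr25 replicate 2 below both, against 12.6% of all genes tested. The opposite order was found in 8 (3.52% against 10.4% of all genes): Zfp131, Zfp267, Zfp326, Zfp395, Zfp511, Zfp513, Zfp593 and Zfp653. In 66 genes both treated libraries were above both controls (29.1% against 32.2%), and in 47 both were below (20.7% against 34%). So a smaller share than among all genes fell below the controls in both libraries, and a larger share took opposite sides. On library totals alone the medians were 0.19 and -0.40 for the Zfp genes and -0.05 and -0.30 for the other genes. On that scale 95 Zfp genes (41.9%) had Cr25 replicate 1 above and Cr25 replicate 2 below both controls. The share was 17.0% of all genes tested and 19.1% of the other genes. With Zfp966 and Zfp967 counted as 1 gene, the median difference between the treated libraries was 0.47.

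**Figure D2:**
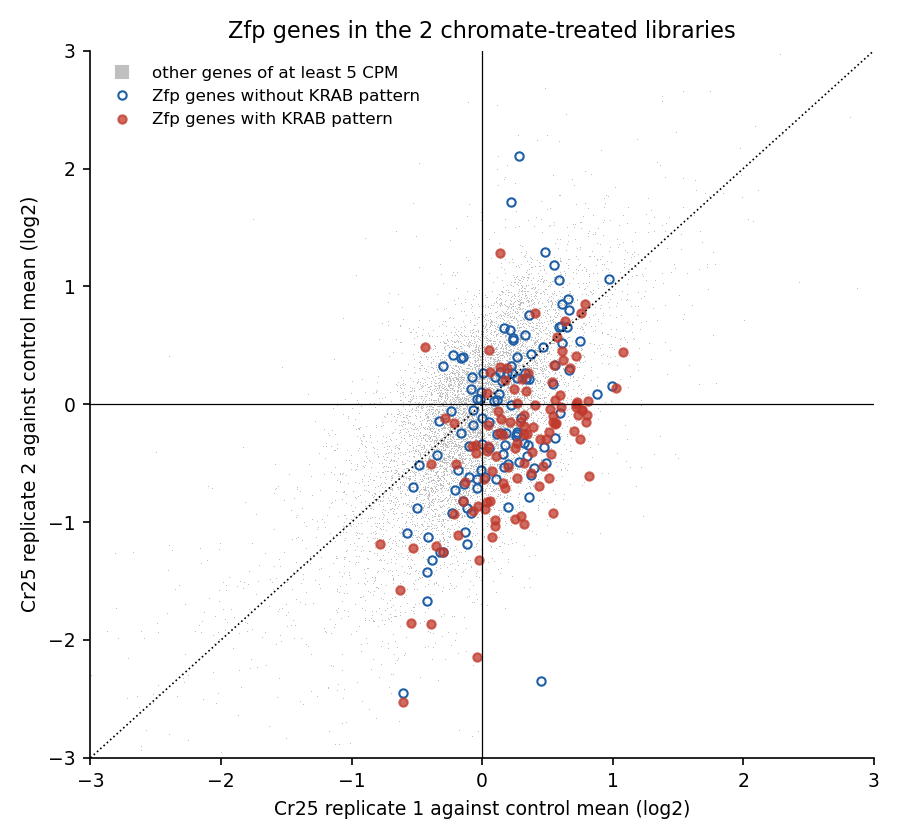
Log2 difference from the control mean in Cr25 replicate 1 (horizontal) and Cr25 replicate 2 (vertical) for 227 Zfp genes, filled where the coding sequence has a KRAB pattern, over 9982 other genes of at least 5 CPM in grey; 49 other genes lie outside the axes. The dotted line marks equal values. Filled points gather to the right of the vertical axis and below the horizontal one, around the medians of 0.27 and -0.24 of KRAB genes.

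The extremes show how far single genes went apart. Zfp41, on chromosome 15, measured 6.10 and 6.88 CPM in the controls, 8.89 CPM in Cr25 replicate 1 and 1.28 CPM in Cr25 replicate 2, the widest difference of all 227 genes at 2.80 (log2). Zfp324 measured 12 and 13.4 CPM in the controls, 8.33 CPM in Cr25 replicate 1 and 2.21 CPM in Cr25 replicate 2, and Zfp329, its neighbour on chromosome 7, 16.4 and 15.2 CPM, then 10.4 and 2.90 CPM. Both genes were below the controls in both treated libraries, by far more in replicate 2. In the other direction Zfp296 measured 5.41 and 5.62 CPM in the controls, 6.71 CPM in Cr25 replicate 1 and 23.7 CPM in Cr25 replicate 2. These 4 genes are named for their values, outside the rule for named genes.

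The split was wider in genes that encode more fingers, and across the finger classes it widened through Cr25 replicate 2. In genes with 0, 1 to 5, 6 to 10 and 11 or more patterns, the Cr25 replicate 1 medians were 0.27, 0.17, 0.25 and 0.19. Those of Cr25 replicate 2 were 0.28, 0.05, -0.06 and -0.35. The median difference between Cr25 replicates 1 and 2 was -0.06 for the 6 genes without a C2H2 pattern, -0.02 for 47 genes with 1 to 5 patterns, 0.38 for 65 genes with 6 to 10, and 0.64 for 109 genes with 11 or more. It was 0.64 for the 113 genes with a KRAB pattern and 0.21 for the 114 without. Within the genes of 11 or more patterns it was 0.69 with KRAB (75 genes) and 0.52 without (34 genes), and within those of 6 to 10 patterns 0.54 (32 genes) and 0.12 (33 genes). In the group with KRAB and 11 or more patterns, 39 of 75 genes (52.0%) had Cr25 replicate 1 above and Cr25 replicate 2 below both controls. Genes outside the Zfp series showed the same order of values: the median difference was 0.72 in 36 other genes with KRAB and at least 3 C2H2 patterns, 0.82 in 34 other genes with 11 or more patterns, and 0.31 in 111 with 3 to 10. Proteins with many fingers come from genes that also differ in other ways, since the KRAB genes had a median exonic GC content of 41.4% and a control level of 13 CPM, against 50.3% and 27.5 CPM for the genes without KRAB.

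**Figure D3:**
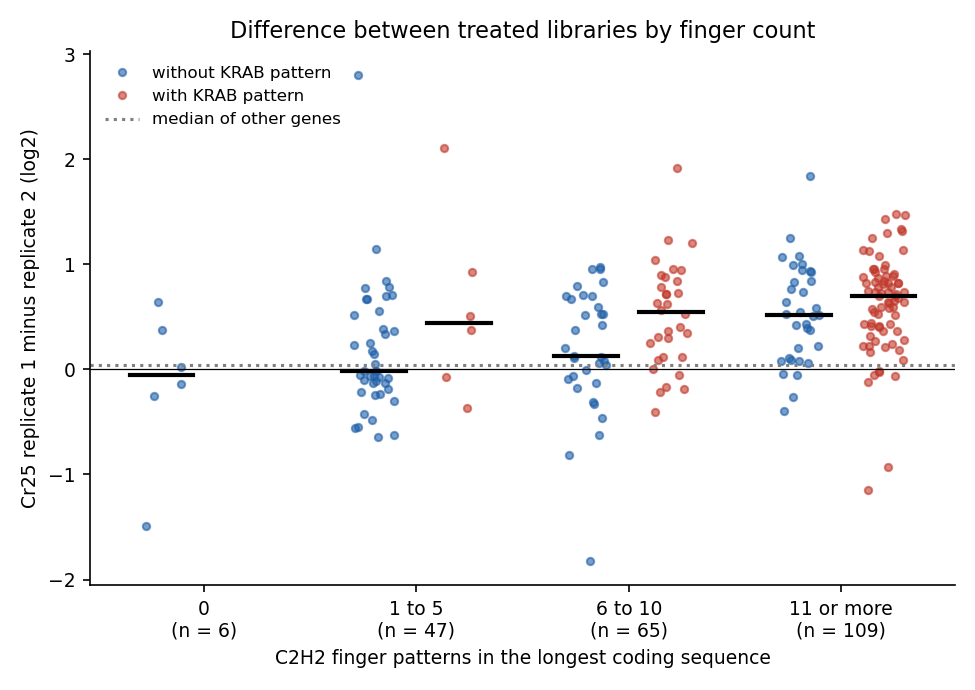
Difference between Cr25 replicates 1 and 2 (log2) for each of 227 Zfp genes, by the number of C2H2 finger patterns in the coding sequence and by the presence of a KRAB pattern. Black bars are medians and the dotted line is the median of other genes, 0.04. Without KRAB, the medians climb from about 0 with up to 5 patterns to 0.12 with 6 to 10 and 0.52 with 11 or more. With KRAB, they are 0.54 with 6 to 10 patterns and 0.69 with 11 or more. The few KRAB genes with 1 to 5 patterns spread from -0.37 (Zfp459) to 2.10 (Zfp369).

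Set beside other genes of like expression and length, the 2 libraries told different things. The other genes themselves fell away in Cr25 replicate 2 with length: their median was 0.12 under 2500 exonic bases, -0.08 from 2500 to 5000 and -0.31 from 5000 up, and the Zfp genes were at 0.23, -0.12 and -0.35. With control level, the other genes in Cr25 replicate 2 went from -0.28 at 5 to 10 CPM to 0.02 at 50 CPM and over, and the Zfp genes from -0.33 to -0.00. In Cr25 replicate 1, by contrast, the other genes stayed between -0.05 and -0.02 in all of these classes, and the Zfp genes between 0.10 and 0.30. When each Zfp gene was set against the median of the other genes in its class of level and length (12 classes, at least 280 other genes in each), the median excess was 0.22 in Cr25 replicate 1, with 167 of 227 above 0, and 0.09 in Cr25 replicate 2. For the fitted log2 fold change the excess was 0.16, with 155 of 227 above 0 and the Zfp median above that of the other genes in 11 of 12 classes, and for the difference between treated libraries it was 0.24. The lower values of the Zfp genes in Cr25 replicate 2 were thus shared by other genes of their level and exonic length. The higher values in Cr25 replicate 1 were not. Gene span gave a different view of Cr25 replicate 2. From 10000 to 20000 bp of span, 87 Zfp genes were at -0.24 and 2026 other genes at 0.06. Under 10000 bp the medians were 0.06 and 0.11, from 20000 to 50000 bp -0.15 and -0.08, and from 50000 bp up -0.49 and -0.37.

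Base composition moved with the same values. Below 42% exonic GC, the difference between treated libraries had a median of 0.70 in 81 Zfp genes and 0.20 in 957 other genes, and at 54% and over it was -0.01 in 42 Zfp genes and -0.09 in 2836 others. With GC added to the classes of level and length, a choice made after seeing the data, the median excess of the Zfp genes was 0.23 in Cr25 replicate 1, 0.11 in Cr25 replicate 2 and 0.21 in the fitted log2 fold change. RNA quality per library is not given in the sources used here, and the part of length, GC content and RNA quality in the split was not tested. In the 137 genes with at least 90% unique stretches and no overlap with another gene, the medians were 0.22 and -0.24 in the 2 treated libraries, the difference was 0.50, and 3 of the 4 calls remained.

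**Figure D4:**
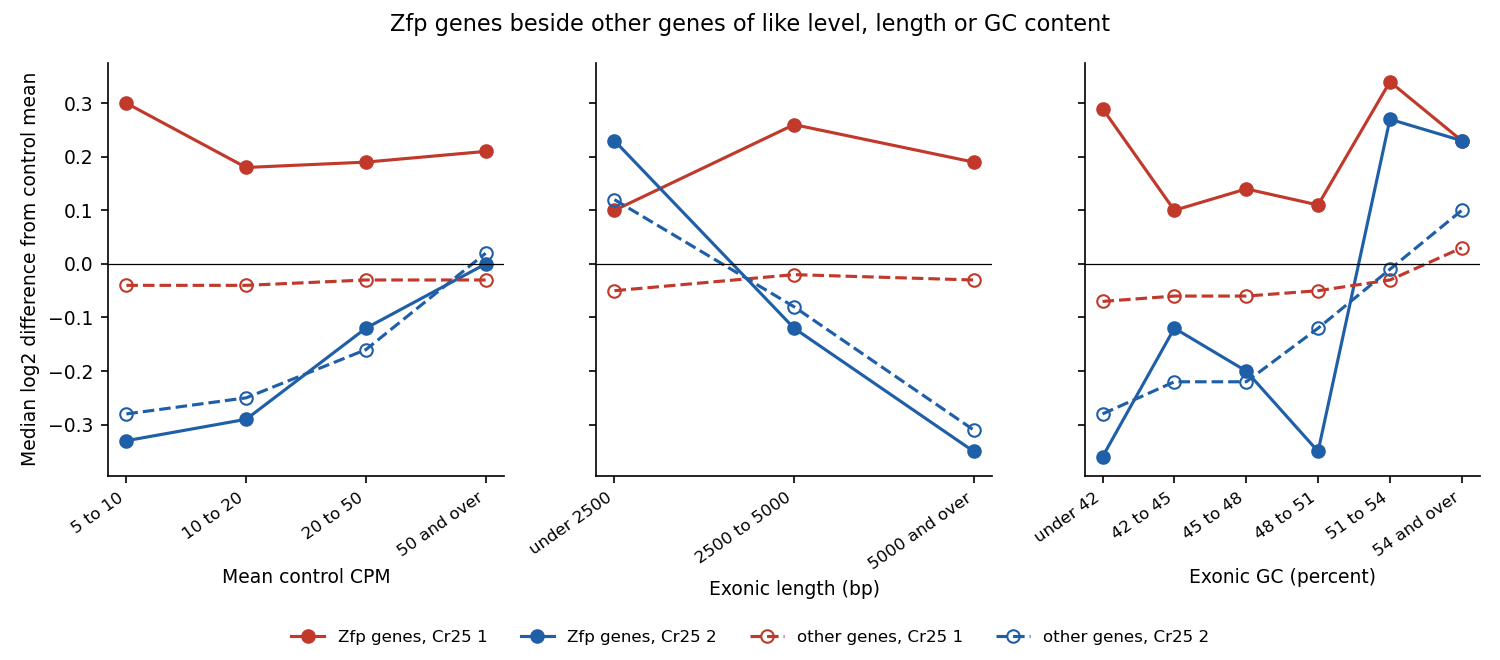
Median log2 difference from the control mean in classes of control level, exonic length and exonic GC content, for Zfp genes (filled, solid) and other genes of at least 5 CPM (open, dashed). Red is Cr25 replicate 1 and blue is Cr25 replicate 2. The blue lines of both kinds of gene run together over level and length (from 0.23 and 0.12 in short genes to -0.35 and -0.31 in long ones), and the red line of the Zfp genes stays above that of the other genes in every class.

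The genes lie on 20 chromosomes, most on chromosome 7 (51) and chromosome 17 (35). With neighbours no more than 1000 kb apart and at least 5 genes to a cluster, 86 genes fell into 11 clusters. In all 11 clusters the median of Cr25 replicate 1 was above that of replicate 2, and in 8 of them the first was above and the second below the controls. In the largest, on chromosome 17 from Zfp160 to Zfp213 (21008941 to 23564226), 14 of 18 genes had a KRAB pattern, the medians were 0.46 and -0.14, 11 genes took opposite sides of both controls, and the 1 other gene of at least 5 CPM in the interval was at -0.53 and 0.63. The second chromosome 17 cluster, from Zfp871 to Zfp414 (32765496 to 33631716), had medians of 0.54 and -0.34 over 10 genes, with 4 other genes at 0.65 and 0.21. The chromosome 2 cluster from Zfp965 to Zfp931 (175470025 to 178078425) had medians of 0.64 and -0.05 over 6 genes, which include the pair with identical counts. All 6 of its genes were above the control mean in Cr25 replicate 1, between 0.37 and 0.77. The 12 other genes of this interval were at 0.36 and -0.60, a median difference of 0.96 between the treated libraries against 0.78 for the Zfp genes, so the split there was not limited to Zfp genes.

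Other clusters behaved differently. On chromosome 15 the 5 genes from Zfp41 to Zfp7 had medians of 0.58 and 0.41, with 4 of them above both controls in both libraries, and the 37 other genes of that interval were at 0.27 and 0.37. On chromosome 7 the 9 genes from Zfp180 to Zfp526, none of which has a KRAB pattern, had medians of -0.11 and -0.24, and 5 of them were below both controls in both libraries. Neighbours of 1 cluster share sequence and position, so their values are not independent of each other.

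**Figure D5:**
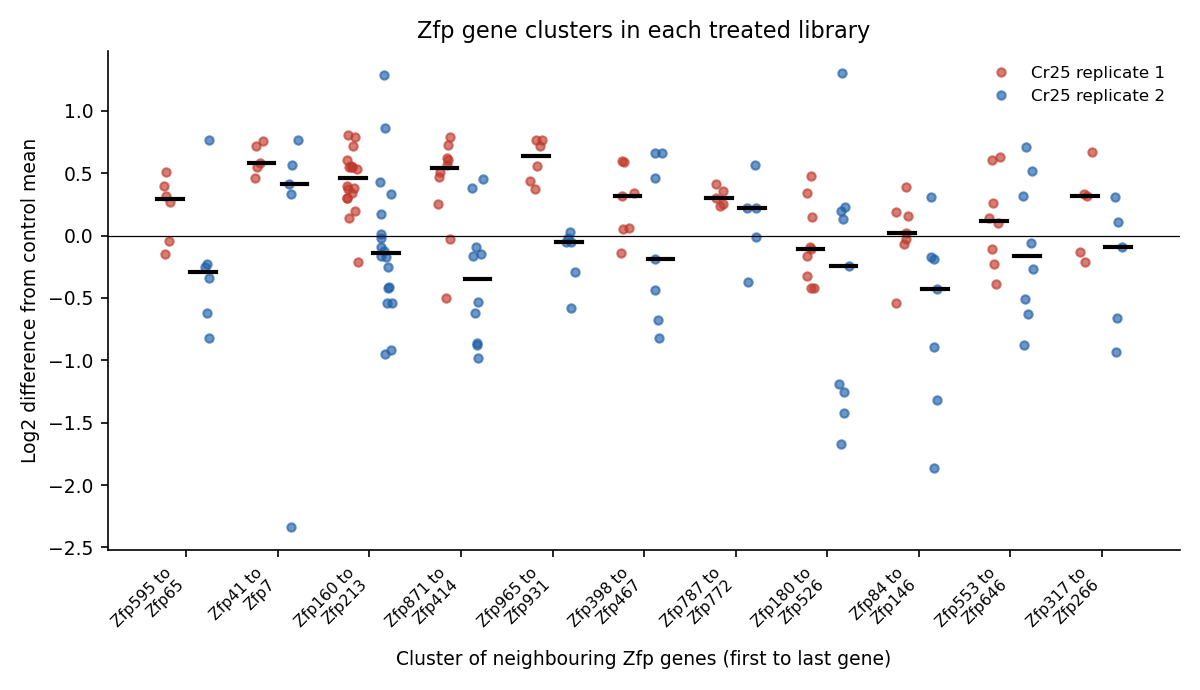
Log2 difference from the control mean of each Zfp gene in the 11 clusters, in Cr25 replicate 1 (red) and Cr25 replicate 2 (blue), with black bars at the medians. Clusters are named by their first and last gene. The red median is above the blue one in every cluster, by most in the chromosome 17 cluster from Zfp871 to Zfp414 (0.54 and -0.34).

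Zfp proteins with known roles in silencing were among the split genes, and none passed the edgeR test. Zfp57, which keeps DNA methylation at imprinted regions, measured 60.4 and 59.8 CPM in the controls, 97.7 CPM in Cr25 replicate 1 and 51.3 CPM in Cr25 replicate 2 (log2 fold change 0.31 ± 0.33, edgeR adjusted p = 0.552). Zfp568, a repressor of a placental Igf2 transcript, measured 46.8 and 44.5 CPM, then 60.0 and 39.9 CPM. Zfp445, another keeper of imprints, measured 59.3 and 56.4 CPM, then 63.9 and 53.0 CPM. In these 3 KRAB genes replicate 1 lay above and replicate 2 below both controls. Zfp809, which silences retroviral DNA, measured 7.33 and 6.67 CPM, then 10 and 6.80 CPM, so that only replicate 1 left the range of the controls.

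Other named Zfp genes whose products act on RNA or on ribosomes, beside Zfp346, had values on both sides of the controls and did not pass the edgeR test. They are grouped for description, with no list behind the group. Zfp36 encodes tristetraprolin, which speeds the decay of mRNAs with AU-rich elements, and measured 20.4 and 20.8 CPM in the controls, 24.1 CPM in Cr25 replicate 1 and 67.7 CPM in Cr25 replicate 2 (log2 fold change 1.15 ± 0.51, edgeR adjusted p = 0.21, DESeq2 adjusted p = 0.0361). Nearly all of that difference came from replicate 2. Zfp622, a factor of large ribosomal subunit maturation, measured 142 and 143 CPM, then 208 and 322 CPM (0.90 ± 0.24, edgeR adjusted p = 0.0992, DESeq2 adjusted p = 0.00778). Zfp598, a ubiquitin ligase that senses collided ribosomes, measured 86.3 and 89.4 CPM, then 121 and 123 CPM (0.48 ± 0.10, edgeR adjusted p = 0.0721). These 3 genes lay above both controls in both treated libraries. Zfp326, a splicing-linked protein, measured 39.2 and 38.9 CPM, then 35.3 and 51.7 CPM, and Zfp638, another nuclear RNA-binding protein, 52.3 and 47.9 CPM, then 46.7 and 32.6 CPM.

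Among genes for mitosis and transcription factors the values lay on both sides. Zfp207, which encodes the spindle and kinetochore protein BuGZ, measured 232 and 236 CPM in the controls and 163 and 144 CPM after chromate (log2 fold change -0.61 ± 0.12, edgeR adjusted p = 0.0663, DESeq2 adjusted p = 0.0254). It was below both controls in both libraries and was 1 of the 4 genes DESeq2 called lower. Zfp64 measured 95.2 and 98.9 CPM, then 146 and 201 CPM (0.84 ± 0.19, edgeR adjusted p = 0.0788, DESeq2 adjusted p = 0.00735). Zfp217, a factor amplified in breast cancer, measured 55.6 and 51.2 CPM, then 98.3 and 56.7 CPM. Zfp687 measured 55.0 and 55.5 CPM, then 44.9 and 23.1 CPM, and Zfp148 75.9 and 74.7 CPM, then 73.1 and 46.1 CPM. Zfp292 measured 61.6 and 57.8 CPM, then 68.7 and 32.6 CPM, and Zfp281, a factor of pluripotent cells, 60.0 and 56.7 CPM, then 74.5 and 45.9 CPM. In the last 2 genes the treated libraries again took opposite sides of the controls.

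The remaining genes of the described-function list moved little. Zfp143, which binds promoters at chromatin loop anchors, measured 23.1 and 23.6 CPM, then 23.3 and 21.5 CPM, and Zfp131 51.3 and 50.8 CPM, then 49.8 and 52.7 CPM. Zfp384 measured 61.5 and 61.6 CPM, then 67.3 and 65.5 CPM, and Zfp335 101 and 109 CPM, then 123 and 126 CPM. Zfp91, an atypical ubiquitin ligase, measured 172 and 161 CPM, then 155 and 131 CPM. None of these 5 genes passed the edgeR test, which does not show that they did not change.

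The levels differed far more between genes than between libraries. Per kilobase of exon and on library totals, the highest control levels were those of Zfp706 (110 CPM per kb), Zfp622 (52.7), Zfp575 (51.5), Zfp106 (45.8) and Zfp967 (37.4, with its copy Zfp966 at the same value), and the median of all 227 was 4.26 CPM per kb. Zfp706, a protein of 76 residues, measured 465 CPM in both controls, then 522 and 730 CPM (log2 fold change 0.43 ± 0.21, edgeR adjusted p = 0.239). Zfp575 measured 144 and 147 CPM, then 203 and 357 CPM (0.95 ± 0.30, edgeR adjusted p = 0.127, DESeq2 adjusted p = 0.0126), and both genes were above the controls in both libraries. Zfp106 measured 429 and 414 CPM, then 422 and 334 CPM, and only replicate 2 was below both controls.

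The co-repressor genes that KRAB proteins work through had treated libraries close to each other. Of 26 listed genes, all tested, 0 passed the edgeR test in either direction, against 4.63% of all genes tested. At an unadjusted p under 0.05, 4 were higher and 2 lower (15.4% and 7.69%, against 15.6% and 15.1% of all genes). Their median difference between the treated libraries was 0.03. Trim28 measured 408 and 418 CPM in the controls and 406 and 444 CPM in the treated libraries (log2 fold change 0.04 ± 0.13, edgeR adjusted p = 0.853). Setdb1 measured 51.8 and 48.7 CPM, then 51.4 and 39.7 CPM (-0.14 ± 0.17, edgeR adjusted p = 0.594). Trim28 was below both controls in replicate 1 and above both in replicate 2, and Setdb1 was below both in replicate 2 only. Among related C2H2 families, the median difference between treated libraries was 0.55 in 33 Zbtb genes, 0.38 in 18 Zscan or Zkscan genes, 0.39 in 11 Klf genes and 0.55 in 6 Sp genes, and edgeR called 2 of these 68 genes (2.94% against 4.63% of all genes), both Klf genes: Klf11 rose (log2 fold change 1.98 ± 0.18, edgeR adjusted p = 0.0295) and Klf4 fell (-0.84 ± 0.10, edgeR adjusted p = 0.037).

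Few Zfp genes, like few genes at all, had an open chromatin peak near a start site. A MACS peak of 25 µM chromate over control had its centre within 1000 bp of a transcription start site in 2 of 227 Zfp genes (0.881%), Zfp994 and Zfp113, against 163 of 10031 other genes (1.62%). For 0.5 µM over its control it was 3 (1.32%), Zfp664, Zfp318 and Zfp740, against 172 (1.71%). With counts of 2 and 3 genes and 1 library per condition, these shares have no replicate check. A peak lay inside or overlapped 7 Zfp genes (3.08%) in the acute list and 4 (1.76%) in the long-term list. The shares of the other genes were 7.89% and 2.97%, and their median span is 22968 bp against 17351 bp for the Zfp genes. The 4 with such a long-term peak were Zfp664, Zfp318, Zfp740 and Zfp335. In the first 3 the peak centre lay 54, 97 and 104 bp upstream of the start site. The 5 peaks near start sites are given in sequence because they are the peaks closest to a Zfp promoter. They are mm10 reference sequence of RefSeq GRCm38.p6, 5′ to 3′ on the strand of the gene, with the dinucleotide CG in capitals. The acute peaks are whole, at chr17:22225131-22225266 in an intron of Zfp994 (minus strand) and chr5:138155809-138156033 upstream of Zfp113 (minus strand).

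Zfp994: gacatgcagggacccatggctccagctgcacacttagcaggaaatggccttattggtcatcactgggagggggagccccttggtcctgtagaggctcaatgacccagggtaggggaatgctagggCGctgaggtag
Zfp113: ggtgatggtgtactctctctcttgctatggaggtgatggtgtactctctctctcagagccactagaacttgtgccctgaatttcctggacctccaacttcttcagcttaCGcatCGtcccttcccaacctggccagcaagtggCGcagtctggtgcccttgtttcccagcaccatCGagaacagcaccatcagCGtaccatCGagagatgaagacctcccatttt

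Of the long-term peaks, the longest stretch without an annotated exon is shown, cut to at most 300 bases next to the first start site: chr5:124862500-124862704 between Ccdc92 and Zfp664, chr17:46383215-46383514 before Zfp318 and chr15:102203261-102203505 before Zfp740, all on the plus strand.

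Zfp664: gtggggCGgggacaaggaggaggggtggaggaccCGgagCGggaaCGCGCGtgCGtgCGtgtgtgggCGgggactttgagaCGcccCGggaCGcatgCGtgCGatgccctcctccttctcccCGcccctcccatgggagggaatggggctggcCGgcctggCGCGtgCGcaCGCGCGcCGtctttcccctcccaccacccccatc
Zfp318: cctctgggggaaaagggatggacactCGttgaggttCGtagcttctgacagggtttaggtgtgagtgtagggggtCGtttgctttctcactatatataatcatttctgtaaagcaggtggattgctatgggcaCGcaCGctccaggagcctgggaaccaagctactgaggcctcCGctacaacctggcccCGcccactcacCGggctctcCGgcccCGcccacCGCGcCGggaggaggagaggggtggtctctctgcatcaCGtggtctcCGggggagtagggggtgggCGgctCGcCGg
Zfp740: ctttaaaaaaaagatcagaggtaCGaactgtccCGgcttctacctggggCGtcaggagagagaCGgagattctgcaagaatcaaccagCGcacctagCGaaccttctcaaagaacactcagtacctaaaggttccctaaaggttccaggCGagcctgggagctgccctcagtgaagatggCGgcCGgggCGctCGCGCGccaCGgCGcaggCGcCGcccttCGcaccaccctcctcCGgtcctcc

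The acute peaks at Zfp994 and Zfp113 had 0.74 and 2.67 CG per 100 bases, below and above the median of 1.01 over all 2945 peaks of that list. The whole long-term peaks at Zfp664, Zfp318 and Zfp740 had 12.5, 9.01 and 7.24, against a median of 0.85 over all 860 peaks of their list. A high CG density is a known feature of CpG island promoters. All 5 peaks were chosen for lying near a start site, whereas the medians cover peaks at any position. The CG density of the other start-site peaks was not measured, so the comparison does not set these peaks apart from them. The AP-1 sequence TGACTCA, or TGAGTCA on the other strand, occurred in none of the 5 peaks, and in 12% and 22.8% of all peaks of the acute and long-term lists, whose median widths were 120 and 513.5 bases.

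Expression of these 5 genes after 25 µM chromate was measured in the same RNA-seq libraries. The samples include no RNA-seq library of cells treated with 0.5 µM chromate. Zfp994 measured 38.4 and 37.5 CPM in the controls and 32.8 and 34.0 CPM in the treated libraries (log2 fold change -0.19 ± 0.11, edgeR adjusted p = 0.325), and Zfp113 31.9 and 30.3 CPM, then 32.5 and 37.7 CPM (0.17 ± 0.14, edgeR adjusted p = 0.433). Neither gene with an acute peak near its start changed in the test. Zfp740, with a long-term peak, measured 110 CPM in both controls, then 173 and 205 CPM (0.78 ± 0.13, edgeR adjusted p = 0.0531, DESeq2 adjusted p = 0.00434). Zfp664 measured 117 and 115 CPM, then 145 and 139 CPM, and Zfp318 17.0 and 15.6 CPM, then 24.0 and 13.4 CPM. Zfp740 and Zfp664 were above both controls in both libraries, and Zfp318 was split like many genes of the series.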

How the data were processed

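RNA-seq counts per Entrez gene were deposited by the authors as raw whole numbers, made by aligning reads to mm10 with TopHat; the counting tool is not given in the sources used here. The peak score values, which the authors made with MACS at default settings after BWA alignment, are 10 times the negative log10 p of 1 treated library against 1 control. Counts of 2 Cr25 and 2 control libraries (totals of 32319676 to 37696116) were tested with edgeR 4.0.16 (R 4.3.3; filterByExpr, TMM, quasi-likelihood test, no covariate, two-sided, adjusted p threshold 0.05), which keeps 13619 genes at a biological coefficient of variation of 0.193 and stands in for the study's DESeq. Standard errors are the log2 fold change over the square root of F. CPM in the text are TMM-scaled unless the rule or library totals are named. Intervals for shares are not given, because members are not a sample of reads.

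C2H2 (C-X2-4-C-X12-H-X3-5-H) and KRAB A-box patterns were counted in the longest curated RefSeq coding sequence of each gene. Named genes were the called members, the 5 highest per kilobase, members of a list of Zfp genes with described functions, those next to the threshold or with a peak near a start site, called co-repressor genes, Trim28 and Setdb1. The members, lists and tests were chosen with earlier results of these data known. Same-numbered libraries deviated with a correlation of 0.0909 over 2 pairs, and the numbers were not used as pairs. Alternatives were library-size scaling, upper quartile, DESeq2 1.42.0, no filter, a replicate block, each library left out, other CPM thresholds, C2H2 members only, and peaks within 5000 bp; unique members and GC classes were added after seeing the data. The edgeR fit was tested on simulated counts with the same spread in all 4 libraries, unlike the real data, where the treated libraries differed more than the controls. Python 3.11.15, pandas 2.3.3, numpy 2.4.6, pysam 0.24.0 and matplotlib 3.10.9 were used.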

Additional observations from a re-analysis of the deposited data

How the results depend on the processing

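The median log2 fold change of the Zfp genes ran from -0.18 without Cr25 replicate 1 to 0.21 without Cr25 replicate 2, and the share below 0 from 62.6% to 28.6%; it turned to -0.05 and 56.4% with library-size scaling and lay between 0.02 and 0.07 and between 41.9% and 47.1% otherwise. The counts of calls did not hold either. DESeq2 gave 12 higher and 4 lower, including the 4 of edgeR, and library-size scaling gave 1 higher. With the replicate block, which takes the label numbers as pairs although nothing shows that they are, 16 were higher and 14 lower, the 4 called genes among them (13.2% of Zfp genes against 21.8% of all). Leaving out 1 library at a time gave 0 to 128 higher and 0 to 113 lower, since without Cr25 replicate 1 (62 higher, 113 lower, 77.1% against 77.6% of all genes) or Cr25 replicate 2 (128 higher, 35 lower, 71.8% against 67.2%) the lone treated library is assumed to vary like the controls, and without either control none was called. The other CPM thresholds, genes with a C2H2 pattern only, upper-quartile scaling and genes with unique reads (3 higher) kept the count of rises within 1.5 times and 0 falls. Without the filter 3 were higher, of which 2 were shared with the main test. With peaks within 5000 bp of a start site, the acute count went from 2 to 4 (with Zfp81 and Zfp426 added) and the long-term count from 3 to 4 (with Zfp335).

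Of the named genes, some changed sign, and none of them had passed the test. Under library-size scaling Zfp445 was at -0.09, Zfp281 at -0.05, Zfp131 at -0.11 and Zfp384 at -0.00. Without the filter Zfp445 was at -0.01 and Zfp131 at -0.02, and with DESeq2 Zfp131 was at -0.00. With 1 library left out the log2 fold change ran from -0.32 to 0.00 in Zfp106, -0.04 to 0.76 in Zfp967, -0.22 to 0.70 in Zfp57, -0.03 to 0.52 in Zfp809, -0.11 to 0.14 in Zfp445, -0.18 to 0.39 in Zfp568, -0.34 to 0.35 in Zfp281, -0.14 to 0.42 in Zfp326, -0.04 to 0.06 in Zfp131 and -0.86 to 0.20 in Zfp292. The cause was not tested. With 2 libraries per group and treated libraries this far apart, changes smaller than their spread could not be detected.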
